A study of Mus musculus with 6 samples.

Results

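Receptor chains through which epithelial cells answer interleukins (IL) 17, 20 and 22 were followed in bulk RNA-seq counts of mouse tongue. The set holds 9 of the 24067 genes in the deposited table, taken by symbol. Il22ra1, Il20ra, Il20rb and Il10rb encode receptor chains for IL-22 and the IL-20 cytokines. Il17ra, Il17rb, Il17rc and Il17re encode receptor chains for the IL-17 family, and Il24 encodes a ligand of the IL-20 receptors. The set was chosen by its receptor roles and with the read counts and fold changes between the groups below known, so those measured values selected it. Levels, fold changes and calls of the 9 genes are therefore a description, and no call of them below serves as a test.

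The libraries came from C57BL/6 mice aged about 34 weeks, 3 labelled HuR knockout (KO) and 3 labelled HuR wild type (WT). All had been exposed to the carcinogen 4-nitroquinoline 1-oxide for 16 weeks and kept for 12 more weeks, and each library held tongue tissue together with its tumour. Elavl1 encodes HuR, a protein that attaches to AU-rich stretches in messenger RNA. The labels give no more about the knockout (the promoter, the Cre driver and the cells it reaches are not stated in them), nor how the mice of a group relate, so the spread measured is that between these libraries. The comparison asks which transcripts differ with the HuR label after the carcinogen.

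Totals ran from 34754246 to 51520707 counts in the libraries labelled KO and from 29543352 to 51280006 in those labelled WT. Elavl1 was not lower under the KO label, with 59.3 to 78.4 CPM (counts scaled to library size, 1 CPM being 25.6 to 53.0 counts) against 48.0 to 61.7 CPM under the WT label, so the groups are named by their labels throughout. KO replicates 2 and 3 were female and KO replicate 1 and all WT libraries male, read from Xist (1271 and 1104 CPM in these 2) and Y-linked genes, so sex differs with the label in part. Among WT libraries, replicate 1 stood nearer to the KO libraries than the other two for many genes below, and values are given for each library for that reason. In bulk tissue, fewer cells of a type and less RNA per cell cannot be told apart.

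Keratinocytes display these receptors on their surface, while the cytokines come mostly from lymphocytes, myeloid cells and, for IL-24 and IL-17C, the epithelium itself. IL-22 signals through a pair of the chains IL-22RA1 and IL-10RB. IL-20 and IL-24 use IL-20RB paired with either IL-20RA or IL-22RA1, and IL-19 uses the IL-20RA pair. These pairs signal through JAK kinases and STAT3. IL-17A and IL-17F bind IL-17RA with IL-17RC, IL-25 binds IL-17RA with IL-17RB, and IL-17C binds IL-17RA with IL-17RE, and all of them recruit the adaptor Act1, encoded by Traf3ip2. In mouth and skin the IL-17 and IL-22 pathways are known for induction of antimicrobial proteins and chemokines and for defence against Candida.

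Promoter sequences are shown for the 3 chains whose pairing is exchanged among the IL-20 and IL-22 receptors and whose values below part from each other. RefSeq promoters in GRCm38.p6, which run from 250 bases before to 50 bases after the start of transcription, were given for 6 of the 9 genes (Il22ra1, Il20ra, Il20rb, Il17rb, Il17rc and Il17re). Capitals mark letters that match a searched motif, TGANTCA for AP-1 or TTGCNNCAA for C/EBP, on either strand. For Il22ra1 the window is chr4:135727909-135728208 on the plus strand, the Il20ra window chr10:19712337-19712636 on the plus strand and the Il20rb window chr9:100486424-100486723 on the minus strand, each written 5′ to 3′ along its gene. The Il20ra gene position begins at 19711673, before its window, so that window lies inside the annotated gene and belongs to a later start site.
Il22ra1: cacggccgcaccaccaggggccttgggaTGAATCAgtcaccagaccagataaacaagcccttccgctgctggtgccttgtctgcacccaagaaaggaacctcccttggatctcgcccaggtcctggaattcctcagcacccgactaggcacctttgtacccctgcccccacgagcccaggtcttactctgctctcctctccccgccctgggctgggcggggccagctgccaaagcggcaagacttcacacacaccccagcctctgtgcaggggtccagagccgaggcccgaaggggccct
Il20ra: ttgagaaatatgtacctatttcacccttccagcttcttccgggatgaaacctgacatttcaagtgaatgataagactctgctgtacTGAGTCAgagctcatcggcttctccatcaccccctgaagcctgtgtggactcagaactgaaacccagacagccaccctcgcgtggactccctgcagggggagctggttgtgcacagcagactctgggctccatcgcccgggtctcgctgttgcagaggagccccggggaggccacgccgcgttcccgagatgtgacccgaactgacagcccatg
Il20rb: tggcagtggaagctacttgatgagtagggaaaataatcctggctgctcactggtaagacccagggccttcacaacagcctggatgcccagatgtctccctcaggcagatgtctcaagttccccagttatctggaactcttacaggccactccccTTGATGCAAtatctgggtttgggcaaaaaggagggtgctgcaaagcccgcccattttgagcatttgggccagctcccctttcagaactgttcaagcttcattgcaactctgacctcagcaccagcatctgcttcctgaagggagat
The AP-1 letters occurred in 3 of the 6 windows, those of Il22ra1 (TGAATCA, starting 222 bases before the start site), Il20ra and Il17rb (TGAGTCA in both). Of all 32851 promoter windows, 7.81% held them. The C/EBP letters occurred in the Il20rb window alone among the 6, and in 2.08% of all windows. The STAT letters TTCNNNGAA (8.30% of all windows), an NF-kappaB motif (5.55%) and the GRHL letters AACNGGTT (2.09%) occurred in none of the 6. No matched stretch overlapped another. A match is a description of letters and says nothing on binding.

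Il22ra1, the chain that sets which cells can answer IL-22, differed most steadily between the labels. It stood at 18.5, 22.5 and 15.3 CPM for KO replicates 1, 2 and 3, against 6.94, 6.67 and 5.24 CPM for WT replicates 1, 2 and 3. The groups did not overlap, and the lowest KO library lay above the highest WT library by more than the range of the WT group. Mean levels came to 18.8 ± 3.62 CPM under KO and 6.28 ± 0.915 CPM under WT (SD, n = 3 each), a fold of 2.98 (95% interval 2.18 to 4.06) and a log2 fold change of 1.57 ± 0.19 (SE). Each library held at least 134 Il22ra1 counts. The male KO library, replicate 1, lay above all 3 male WT libraries. Il22ra1 (identifier 230828) is a protein-coding gene at chromosome 4, 135728159 to 135755383 in GRCm38.

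The partner chains of IL-22RA1 did not show a change of that size. Il10rb, the shared chain that completes the receptors for IL-22, IL-10 and the lambda interferons, stood at 24.3, 31.2 and 26.3 CPM for KO replicates 1, 2 and 3, against 23.7, 23.2 and 21.5 CPM in the WT libraries. All KO libraries lay above all WT libraries, by a gap of under 1 CPM between KO replicate 1 and WT replicate 1, and the log2 fold change was 0.26 ± 0.13 (SE). Il20rb, the chain common to both IL-20 receptors, stood at 24.9, 29.2 and 34.4 CPM in the KO libraries, against 31.3, 33.1 and 31.6 CPM in the WT libraries. The KO libraries spread on both sides of the WT group, with means of 29.5 ± 4.77 CPM under KO and 32.0 ± 0.961 CPM under WT (SD, n = 3 each) and a log2 fold change of -0.12 ± 0.14 (SE).

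Il20ra, the other chain that pairs with IL-20RB, was far less abundant. It stood at 2.18, 1.85 and 4.02 CPM for KO replicates 1, 2 and 3, against 1.95, 0.688 and 0.0782 CPM for WT replicates 1, 2 and 3. WT replicate 1 lay inside the KO range and WT replicate 3 held only 2 counts, so the groups overlapped. The log2 fold change of 1.54 had an SE of 0.74 and a 95% interval of -0.17 to 3.25. The span of Il20ra, introns included, overlaps that of Gm33332, a long non-coding RNA on the opposite strand without counts of its own. Overlap of their exons was not checked and the strand setting is not stated. Whether the Il20ra counts hold reads of that RNA is therefore not known.

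**Figure D1:**
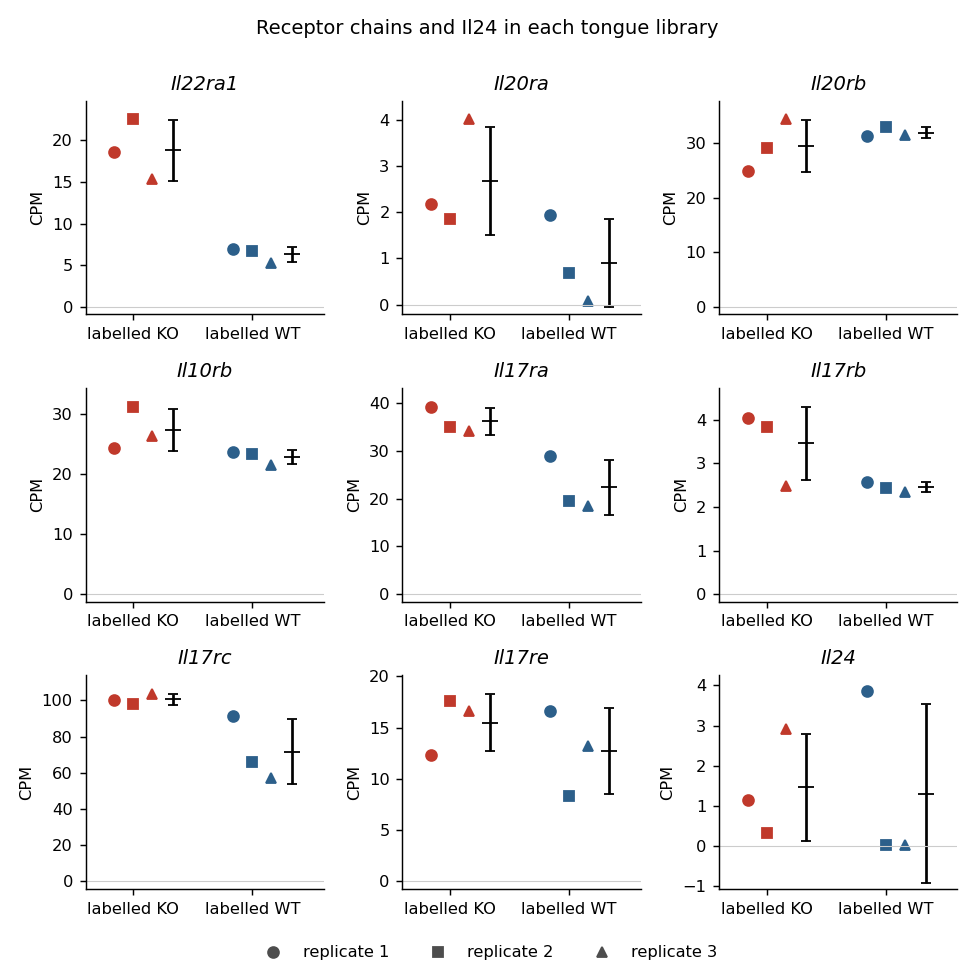
CPM of the 9 genes in each tongue library, labelled KO on the left of each panel and labelled WT on the right, with the marker shape giving the replicate and the black bar the mean and SD over 3 libraries. Il22ra1 separates the groups widely (15.3 CPM or more under KO, 6.94 CPM or less under WT), while in Il20ra and Il24 the WT replicates lie far apart.

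Among the IL-17 receptor chains, Il17ra and Il17rc were higher under the KO label. Il17ra, the chain shared by the receptors of the family, stood at 39.3, 35.1 and 34.1 CPM for KO replicates 1, 2 and 3, against 29.0, 19.6 and 18.5 CPM for WT replicates 1, 2 and 3. The groups did not overlap, WT replicate 1 was the nearest to the KO libraries, and the log2 fold change was 0.69 ± 0.19 (SE). Il17rc, the partner of IL-17RA for IL-17A and IL-17F, stood at 100.3, 97.8 and 103.6 CPM in the KO libraries, against 91.5, 66.1 and 57.1 CPM in the WT libraries. Again no KO library overlapped the WT group, and the KO libraries varied little (SD 2.89 CPM) beside the WT libraries (SD 17.9 CPM), with a log2 fold change of 0.49 ± 0.18 (SE). 

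The chains for IL-25 and IL-17C overlapped between the labels. Il17rb, for IL-25, stood at 4.05, 3.84 and 2.49 CPM for KO replicates 1, 2 and 3, against 2.58, 2.44 and 2.34 CPM for WT replicates 1, 2 and 3, and KO replicate 3 lay within the WT range (log2 fold change 0.49, SE 0.24). Il17re, for the epithelial cytokine IL-17C, stood at 12.3, 17.6 and 16.6 CPM in the KO libraries, against 16.7, 8.36 and 13.2 CPM in the WT libraries (log2 fold change 0.29, SE 0.26). Here KO replicate 1 was below 2 of the WT libraries. Il17re lies just upstream of Il17rc on chromosome 6, from 113458699 to 113470758 in GRCm38, and Il17rc runs from 113471455 to 113483163 on the same strand. The span of Il17re, introns included, overlaps that of Gm52872, a long non-coding RNA on the opposite strand without counts of its own. Overlap of their exons was not checked, so whether the Il17re counts hold reads of that RNA is not known. Of the neighbours, only Il17rc had groups that did not overlap.

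Il24, a cytokine of the IL-20 family made by stressed epithelium, followed no label. It stood at 1.15, 0.317 and 2.92 CPM for KO replicates 1, 2 and 3 (53, 12 and 155 counts), against 3.87, 0.0208 and 0.0391 CPM for WT replicates 1, 2 and 3 (135, 1 and 1 counts). The highest library of all was WT replicate 1, and the lowest were the other WT libraries. The log2 fold change was 0.18 with an SE of 1.36. Without WT replicate 1 the fitted value was 5.63, which rests on 1 count in each remaining WT library. Per scaled count, the KO libraries together held 59.2 times as much Il24 as WT replicates 2 and 3 together (95% interval 16.2 to 492, counting error only). WT replicate 1 alone held 142 times as much as WT replicates 2 and 3 together (38.6 to 1187), so such a ratio does not separate the labels.

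Across all 15903 genes tested, edgeR's quasi-likelihood test at a Benjamini-Hochberg adjusted p under 0.05 called 765 higher and 1181 lower under the KO label, which is 12.2% in either direction. Of the 9 genes, all of which passed the filter on low counts, 2 were called higher (Il22ra1 and Il17ra, where 4.81% of all genes were higher) and 0 lower. Before adjustment (p under 0.05) the counts were 3 higher and 0 lower, where 38.5% of all genes passed (18.2% higher and 20.3% lower). Groups that did not overlap were seen in 4 of the 9, all with KO above WT, where 44.1% of all genes tested did not overlap and 22% had all KO libraries above all WT libraries. The median log2 fold change was 0.49 over the 9 genes and 0.02 over all genes tested. Nothing is read from these calls and shares, here or under the other fits, since the 9 were chosen with this contrast known. Without WT replicate 1, 5 of the 9 were called higher (Il22ra1, Il20ra, Il17ra, Il17rc and Il24), where 17.9% of all genes were higher and 36% were called in either direction. With the replicate block Il17rc was called higher as well, where 24% of all genes were called. By DESeq2 the same 2 genes were called higher, where 9.21% of all genes were. Il22ra1 and Il17ra both fell short of the threshold without KO replicate 1, KO replicate 2 or WT replicate 2 and with sex as a covariate (edgeR), and Il17ra alone did so without KO replicate 3 or WT replicate 3. The log2 fold change of Il22ra1 stayed between 1.43 and 1.70 over the 6 fits that each left out a library, and was 1.56 with sex in the fit.

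The authors' deposited table for 6 libraries gives log2 fold changes of WT over KO, the opposite direction. They were -1.47 for Il22ra1, -0.64 for Il17ra and -0.03 for Il24. For Il24 the authors' deposited tables differ with the WT libraries used. The value was 0.20 (WT over KO) in the authors' deposited table with WT replicates 1 and 3, and -1.85 (WT over KO) in the authors' deposited table with WT replicates 2 and 3. Both of these used KO replicates 1 and 2. Over 6 libraries the authors' SE for Il24 was 0.31, against 1.92 by DESeq2 here. The sizes of the authors' Il24 values are therefore not set against the fitted values above.

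Levels of different genes were set side by side as CPM per kilobase of annotated exon (kb). In the libraries labelled KO, Il17rc came first with 37.7 ± 1.08 CPM per kb (SD, n = 3), followed by Il22ra1 (7.31 ± 1.41), Il10rb (7.16 ± 0.926) and Il20rb (7.02 ± 1.13), which overlapped each other. Il17ra (4.18 ± 0.317) and Il17re (2.64 ± 0.478) came next. Il20ra, Il24 and Il17rb closed the order at 1.11 ± 0.481, 1.06 ± 0.960 and 0.933 ± 0.228 CPM per kb, and their libraries overlapped. In the libraries labelled WT, Il17rc again came first (26.8 ± 6.69 CPM per kb) and Il20rb (7.61 ± 0.229) and Il10rb (5.98 ± 0.306) followed without overlap, whereas Il22ra1 (2.45 ± 0.356) overlapped Il17ra (2.58 ± 0.669) and Il17re (2.17 ± 0.710). With the longest coding transcript as the length, Il17rc remained first under both labels and Il22ra1 had rank 4 under KO and rank 6 under WT.

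The balance within receptor pairs was read as the ratio of per-kb levels inside each library, which does not depend on library scaling. In bulk tissue the ratio can still depend on the tissue makeup, which moved with the labels (below). The part of the makeup in these ratios was not tested. For the IL-22 receptor, the Il22ra1 to Il10rb ratio was 1.13, 1.07 and 0.862 in KO replicates 1, 2 and 3, against 0.435, 0.426 and 0.362 in WT replicates 1, 2 and 3. For the receptor pair of IL-20 and IL-24 that uses Il22ra1, the Il22ra1 to Il20rb ratio was 1.22, 1.26 and 0.727 in the KO libraries, against 0.363, 0.330 and 0.271 in the WT libraries. Under the WT label the alpha chain transcript was thus the scarcer one in both pairs, and under the KO label the transcripts were near parity with this length. With the longest coding transcript as the length, the Il22ra1 to Il10rb ratio averaged 0.496 ± 0.0682 under KO and 0.198 ± 0.0193 under WT (SD, n = 3 each). The Il22ra1 to Il20rb ratio averaged 0.710 ± 0.197 under KO and 0.213 ± 0.0309 under WT on that length, so Il22ra1 was then the scarcer chain under both labels. For the IL-17A receptor the Il17ra to Il17rc ratio averaged 0.111 ± 0.00962 under KO and 0.0964 ± 0.00462 under WT (SD, n = 3 each), and all KO libraries lay above all WT libraries by a small margin.

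The tissue makeup of the libraries moved with the labels. The 14 pan-epithelial markers (keratins of basal and tongue epithelium, cadherin and desmosome genes) summed to 36264 to 47218 CPM under KO against 20521 to 29296 CPM under WT, and all 14 were present in every library. The 11 suprabasal markers measured summed to 17917 to 22545 CPM under KO and 2439 to 10351 CPM under WT. The 10 skeletal muscle markers summed to 32932 to 46665 CPM under KO and 58834 to 110975 CPM under WT, and the 8 myeloid markers measured to 770 to 2061 CPM under KO and 186 to 526 CPM under WT. The myeloid difference lay mostly in S100a8 and S100a9. The other 6 markers were Lyz2, Csf1r, Cd68, Itgam, Ptprc and Cd14. Their sums overlapped, at 163 to 206 CPM under KO and 178 to 192 CPM under WT. Of these, Cd14 (7.46 to 11.5 CPM under KO, 4.38 to 6.54 CPM under WT) and Itgam (12.4 to 15.2 and 9.54 to 11.4 CPM) had all KO libraries above all WT libraries. Lyz2, Csf1r, Cd68 and Ptprc overlapped between the labels. The 7 markers of T cells and innate lymphocytes overlapped, with 53.8 to 75.6 CPM under KO and 39.1 to 60.2 CPM under WT, a sum mostly of Thy1. Without Thy1 the other 6 summed to 17.69 to 28.9 CPM under KO and 5.28 to 17.66 CPM under WT, and the lowest KO library and WT replicate 1 nearly met. The mast cell list overlapped too (64.5 to 75.0 CPM under KO, 61.6 to 76.1 CPM under WT). Fibroblast markers (932 to 1281 CPM under KO, 1458 to 1753 CPM under WT), endothelial markers (251 to 301 and 356 to 481 CPM) and Schwann cell markers (95.3 to 123 and 148 to 245 CPM) were lower under KO in every library. Salivary gland markers overlapped (25.2 to 35.6 CPM under KO, 28.1 to 87.4 CPM under WT). The defining salivary gland gene Smgc and the B cell list were near 0, at most 0.0529 CPM and 3.05 CPM in any library. The part of these other cell types in the receptor values was not tested.

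Relative to epithelial transcripts, the 9 genes behaved unequally. Il22ra1 stood at 0.393, 0.493 and 0.421 CPM per 1000 CPM of the 14 pan-epithelial genes in KO replicates 1, 2 and 3, against 0.237, 0.233 and 0.255 in WT replicates 1, 2 and 3. It remained above all WT libraries on that scale, and its 3 WT values lay close together. Il20rb stood at 0.527, 0.640 and 0.949 in the KO libraries against 1.07, 1.16 and 1.54 in the WT libraries, and Il17ra at 0.833, 0.769 and 0.941 against 0.991, 0.683 and 0.903. On this scale Il20rb was lower in every KO library and Il17ra overlapped.

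The scale itself shifts nearly every gene. With libraries scaled to the 14 genes the median log2 fold change of all genes moved by -0.73, and edgeR called 185 higher and 8140 lower (1.16% and 51.2% of genes tested) in place of 765 and 1181. In that fit Il22ra1 was called higher with a log2 fold change of 0.85, Il20rb lower with -0.83, and Il17ra was at -0.018. Il10rb stood at -0.47 and Il17rc at -0.21, neither called. With libraries scaled to the 10 of these genes that are not keratins, a choice made after seeing the data, the median moved by -1.16 and Il22ra1 stood at 0.46, not called. Its values per 1000 CPM of the 10 genes then overlapped, at 1.68, 2.22 and 1.89 in the KO libraries against 1.08, 1.38 and 1.77 in the WT libraries. Il20rb (-1.26) and Il10rb (-0.88) were called lower in that fit, where 65.5% of all genes were lower, 0.673% higher and 66.2% called in all.

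**Figure D2:**
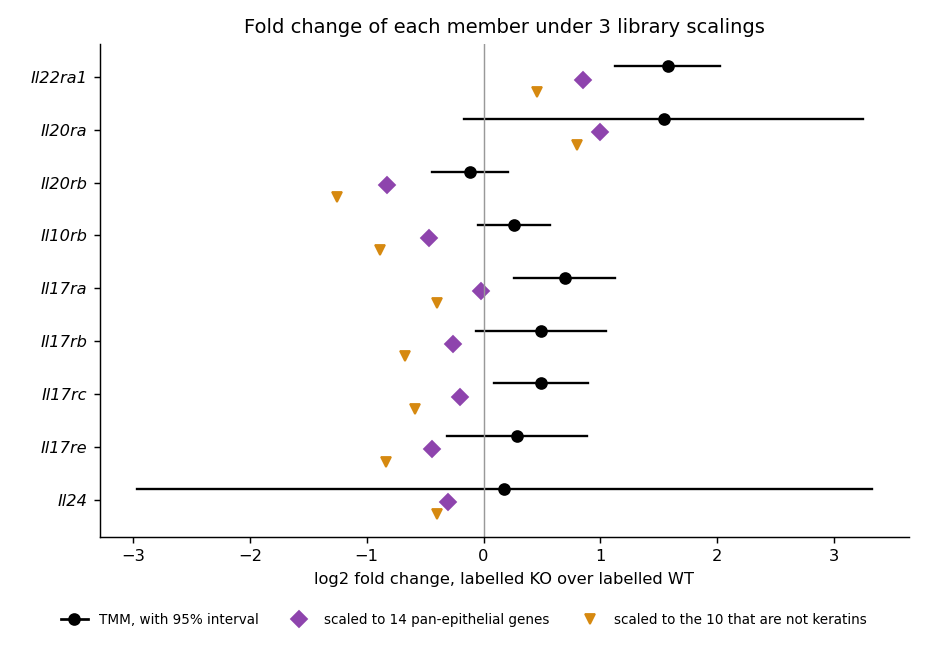
Log2 fold change (labelled KO over labelled WT) of each of the 9 genes with libraries scaled by TMM (black, with the 95% interval of the edgeR fit), to 14 pan-epithelial genes (purple) or to the 10 of them that are not keratins (orange). Il22ra1 (1.57, 0.85 and 0.46) and Il20ra stay above 0 under the 3 scalings, and Il17ra does not (0.69, -0.018 and -0.40).

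**Figure D3:**
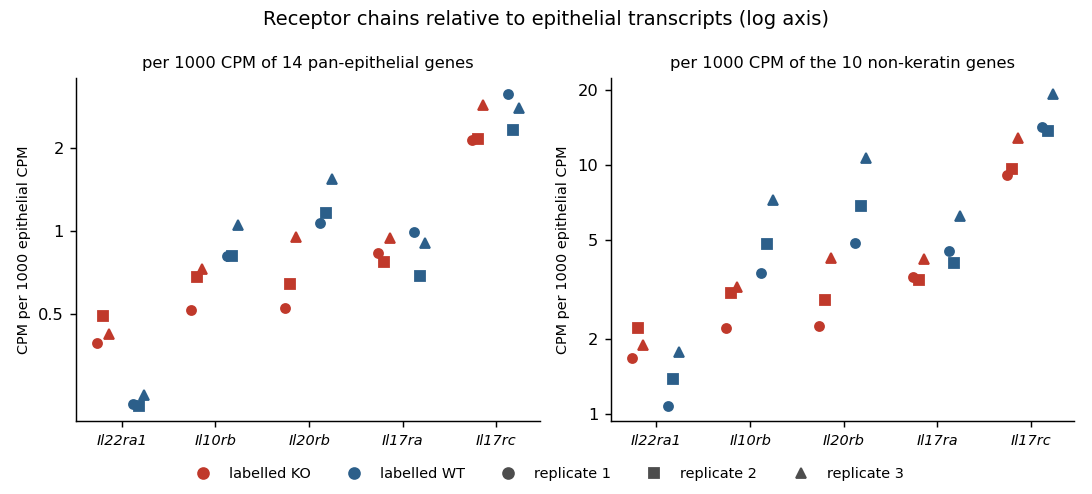
CPM of 5 receptor chains per 1000 CPM of the 14 pan-epithelial genes (left) and of the 10 that are not keratins (right), on log axes, with 1 point per library, labelled KO left of labelled WT. Il22ra1 is above the WT libraries in all 3 KO libraries on the left and overlaps on the right, and Il20rb is lower in all KO libraries on both.

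Ligand transcripts of these receptors were scarce and divided the WT libraries. Of 13 ligand genes other than Il24, 7 passed the filter on low counts and 0 passed the test in either direction (edgeR, 2 higher and 0 lower before adjustment (p under 0.05)), with a median log2 fold change of 1.15. This list and the other pathway lists below were chosen with earlier results of these data known. Their counts of calls and medians are therefore a description. Il17a, the main cytokine of type 17 lymphocytes, had 69, 129 and 95 counts in KO replicates 1, 2 and 3, against 157, 3 and 0 counts in WT replicates 1, 2 and 3. Il17f, its close relative, had 56, 254 and 232 counts in the KO libraries, against 175, 8 and 0 counts in the WT libraries. Il19, an IL-20 family cytokine, had 148, 50 and 518 counts against 221, 4 and 1. In each of these genes, as in Il24, WT replicate 1 was as high as KO libraries while WT replicates 2 and 3 were at or near 0.

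Several other ligands had few counts. Il17c had 18, 15 and 40 counts in KO replicates 1, 2 and 3, against 12, 1 and 2 counts in WT replicates 1, 2 and 3. Il20 had 5, 11 and 26 counts against 2, 0 and 0, and Il22 had 4, 7 and 9 counts against 1, 0 and 0. Reads of Il22 may be split with or lost to its near-identical copy Iltifb, which had 0 counts throughout, so its level is uncertain. All KO libraries had more Il17b (0.265 to 0.566 CPM against 0.0782 to 0.201 CPM under WT, log2 fold change 1.49, edgeR adjusted p = 0.0748). Il17d, which is not a type 17 lymphocyte product, overlapped between the labels, at 1.29 to 1.85 CPM under KO and 1.67 to 1.88 CPM under WT. Il10 had 8 to 28 counts under KO and 5 to 11 under WT, Il25 at most 2 counts, and Ifnl2 and Ifnl3 1 count each, in WT replicate 2.

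**Figure D4:**
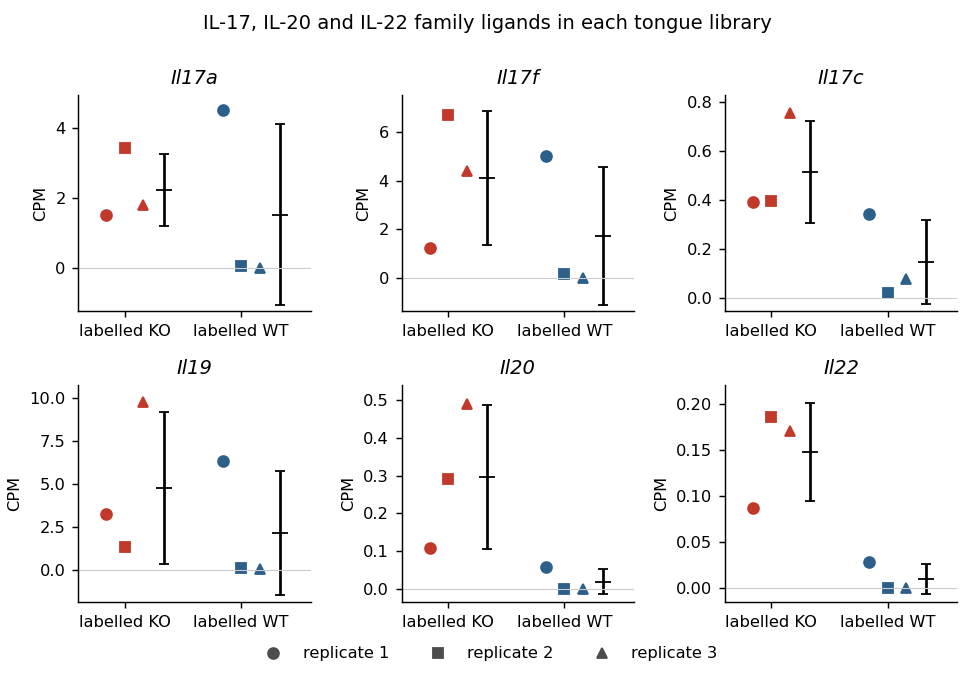
CPM of 6 ligand genes in each tongue library, labelled KO left and labelled WT right, with marker shape for the replicate and the black bar for the mean and SD over 3 libraries. In Il17a, Il17f and Il19 the circle of WT replicate 1 lies at the level of KO libraries while WT replicates 2 and 3 lie at 0.167 CPM or less, and Il22 stays under 0.2 CPM in every library.

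Of the remaining receptor chains of these families, Il17rd fell. Il17rd, which encodes a chain also known as Sef that dampens growth factor signalling, stood at 8.74, 8.20 and 9.06 CPM for KO replicates 1, 2 and 3, against 12.5, 16.1 and 13.4 CPM for WT replicates 1, 2 and 3 (log2 fold change -0.69 ± 0.15, edgeR adjusted p = 0.0370). It was the only one of the 3 tested chains called (0 higher, 1 lower). Il10ra stood at 0.46 ± 0.20 and Ifnlr1, the lambda interferon receptor chain that also pairs with IL-10RB, at 0.46 ± 0.15 on the log2 fold change scale (SE), neither past the threshold (edgeR adjusted p = 0.129 and 0.0733). Il22ra2, a soluble decoy for IL-22, had 1 to 8 counts under KO and 2 to 13 under WT and was not tested.

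Genes that mark type 17 lymphocytes or the cytokines that sustain them were not called (9 tested, edgeR 0 higher and 0 lower, and 3 higher and 1 lower before adjustment (p under 0.05)), with a median log2 fold change of 1.05. Il23r, the receptor of IL-23, stood at 0.654, 1.27 and 0.679 CPM under KO and 0.573, 0.334 and 0.234 CPM under WT (edgeR adjusted p = 0.0982). Cd163l1, a marker of gamma-delta T cells, had WT replicate 1 inside the KO range, with 8.04, 21.6 and 13.8 CPM under KO and 12.8, 3.69 and 2.03 CPM under WT.

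Inside the cell, 0 of 21 genes of IL-17 signalling passed the test (edgeR, 8 higher and 0 lower before adjustment (p under 0.05)), with a median log2 fold change of 0.33. Traf3ip2, the gene of Act1, stood at 37.6, 40.1 and 37.4 CPM in the KO libraries against 32.1, 23.9 and 23.9 CPM in the WT libraries (log2 fold change 0.53 ± 0.15, edgeR adjusted p = 0.0522). Zc3h12a, which encodes the feedback ribonuclease Regnase-1, stood at 102, 121 and 128 CPM against 73.3, 23.9 and 17.9 CPM (1.61 ± 0.48, edgeR adjusted p = 0.0598). Nfkbiz, an inducible cofactor of IL-17 target genes, stood at 101, 101 and 110 CPM against 86.6, 31.0 and 26.0 CPM (1.12 ± 0.41, edgeR adjusted p = 0.0926). In both inducible genes WT replicate 1 lay much nearer to the KO libraries than WT replicates 2 and 3 did.

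Of 9 genes of IL-22 and IL-20 signalling, 2 rose and 0 fell, with a median log2 fold change of 0.24. Bcl3, an atypical inhibitor protein of NF-kappaB, stood at 38.6, 29.8 and 47.0 CPM for KO replicates 1, 2 and 3, against 22.7, 11.8 and 7.70 CPM for WT replicates 1, 2 and 3 (1.45 ± 0.37, edgeR adjusted p = 0.0448). Pim1, a kinase gene induced by STAT3, stood at 27.8, 26.5 and 24.7 CPM against 17.5, 18.1 and 20.9 CPM (0.48 ± 0.13, edgeR adjusted p = 0.0478), and its fold change was below 0 with libraries scaled to epithelial genes. The kinases and STAT of the receptor themselves stood close to 0 on the log2 fold change scale, with Jak1 at -0.04 ± 0.12, Tyk2 at -0.10 ± 0.12 and Stat3 at 0.24 ± 0.15 (SE). Socs3, a feedback inhibitor, averaged 70.4 ± 17.2 CPM under KO and 36.3 ± 23.6 CPM under WT (0.96 ± 0.41, edgeR adjusted p = 0.128).

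Genes known to be induced by IL-17 or IL-22 in epithelium held most of the pathway genes that rose. Of 29 listed, 26 were tested, 6 rose and 0 fell, where 4.81% of all genes tested were higher. A fold change above 0 was seen in 25 of the 26, where 8156 of 15903 genes had one, with a median log2 fold change of 1.68. The 11 suprabasal markers had a median of 1.49. Nothing is read from these shares, since the list was chosen with earlier results of these data known. S100a7a, the mouse psoriasin gene, stood at 25.5, 23.1 and 20.8 CPM under KO and 9.86, 12.8 and 8.13 CPM under WT (1.16 ± 0.19, edgeR adjusted p = 0.0295). With libraries scaled to the 14 pan-epithelial genes its log2 fold change was 0.45, not called. Il1f6, the gene of the epithelial alarmin IL-36 alpha, stood at 105, 130 and 108 CPM under KO and 27.2, 14.2 and 5.20 CPM under WT (2.87 ± 0.50). Cxcl5, a neutrophil chemokine, stood at 4.92, 5.71 and 7.43 CPM under KO and 1.63, 0.354 and 0.117 CPM under WT (3.08 ± 0.68).

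The beta-defensins Defb14, Defb4 and Defb3, antimicrobial peptides of epithelium, were the other 3 that rose (log2 fold changes 1.78, 1.22 and 3.40, edgeR adjusted p = 0.0325, 0.0338 and 0.0376). Their near copies in the genome make the values of single defensins uncertain. Scaled to the 14 pan-epithelial genes, Defb4 stood at 0.49 and was not called, while Defb14 (1.13), Defb3 (2.78), Il1f6 (2.25) and Cxcl5 (2.49) still were. Classical targets that did not pass included Lcn2 at 31.4, 31.4 and 48.3 CPM under KO and 17.5, 2.13 and 0.743 CPM under WT (edgeR adjusted p = 0.0958), and S100a9 at 343, 1207 and 640 CPM under KO and 173, 14.9 and 5.86 CPM under WT (edgeR adjusted p = 0.0768). S100a8 and S100a9 also stand in the myeloid list, where they carried most of the higher sum under KO. Krt16, a keratin of activated epithelium, had 2785, 4074 and 2925 CPM under KO and 1521, 857 and 186 CPM under WT (edgeR adjusted p = 0.0737).

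Of genes that IL-22 and IL-20 cytokines are known to lower in keratinocytes, 2 of the 4 tested rose and 0 fell. They were Krt10, a keratin of differentiating layers (207 ± 106 CPM under KO and 40.5 ± 20.6 CPM under WT, 2.35 ± 0.52, edgeR adjusted p = 0.0375), and Casp14, a caspase of cornification (15.9, 26.9 and 12.8 CPM under KO and 8.51, 6.48 and 4.85 CPM under WT, 1.48 ± 0.31, edgeR adjusted p = 0.0357). Scaled to the 14 pan-epithelial genes, Krt10 stood at 1.65 and Casp14 at 0.76, both called. Scaled to the 10 non-keratin genes, Krt10 stood at 1.31 and was called, and Casp14 at 0.40 was not. Over all 7 lists together, 79 genes were tested, 10 rose and 1 fell, where 4.81% of all genes were higher and 7.43% lower. These shares too are a description, since the lists were chosen with earlier results known. The calls of these lists rest on the libraries kept: the number that rose was 52 without WT replicate 1 (17.9% of all genes were higher there), 6 without WT replicate 3, and 0 without any 1 of KO replicates 1, 2 and 3 and WT replicate 2 (edgeR, with 17 to 26 higher before adjustment (p under 0.05) in those 4 fits).

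**Figure D5:**
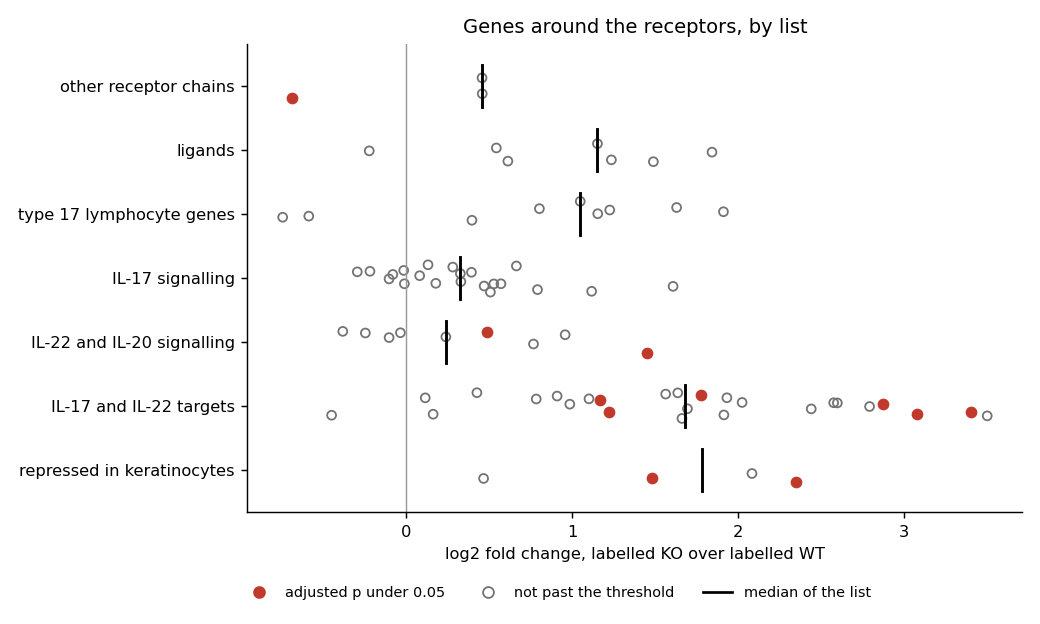
Log2 fold change (labelled KO over labelled WT) of the 79 tested genes in 7 lists around the receptors, 1 point per gene, filled where the edgeR adjusted p is under 0.05, with a bar at the median of each list. The targets of IL-17 and IL-22 have a median of 1.68 with 6 filled points, while IL-17 signalling genes sit around a median of 0.33 with 0 filled.

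Profiles over the 6 libraries were compared with those of 13540 named genes at a mean of at least 1 CPM, by Pearson's r of log2 CPM. These are descriptions over 6 libraries that share their group difference. Closest to Il22ra1 were Ctse, the gene of cathepsin E (r = 0.999), Grhl3, which encodes a transcription factor of the epithelial barrier (r = 0.996), and Nfe2l3 (r = 0.995). Grhl3, also on the list of suprabasal markers, stood at 155, 163 and 128 CPM for KO replicates 1, 2 and 3, against 77.3, 69.5 and 62.5 CPM for WT replicates 1, 2 and 3. Closest to Il20ra were Txlna (r = 0.999), Pdia3 and Rap1b (r = 0.997 for both). Closest to Il20rb were Kif19a (r = 0.996), Rps6kl1 (r = 0.976) and Zfat (r = 0.975). Closest to Il24 were Slc25a10, Rbm10 (r = 0.991 for both) and Mplkip (r = 0.990). No gene was nearest to more than 1 of the 4.

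Because HuR binds AU-rich stretches, the pentamer ATTTA was counted in the annotated 3′ UTR of the longest coding transcript of each gene (GENCODE M21, GRCm38). Il17ra had 6 in 5075 bases, Il10rb 4 in 711 bases and Il24 4 in 381 bases. Il20ra and Il17rb had 1 each, in 400 and 489 bases. Il22ra1 (775 bases), Il20rb (1406 bases), Il17re (615 bases) and Il17rc (21 bases) had 0. Of 14364 tested genes with an annotated 3′ UTR, 68.2% held at least 1, at a median of 1.24 per kb. Il24, with 10.5 per kb, was the densest of the 9. Whether these letters bear on the differences between the labels was not tested.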

How the data were processed

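Per the labels' protocols, total RNA of 6 tongues went into TruSeq RNA libraries. The authors deposited raw counts per gene in 1 table of 6 libraries and 2 tables of 4, with the same counts. Beside them, per the file headers, stand the authors' mean of normalised counts (a signal), log2 fold change of WT over KO with its SE, test statistic (a score), p-value and adjusted p-value. The submitters' processing notes name HTSeq, DESeq2, hg19 and mm10. Aligner, strand setting and annotation were not given in the sources used here.

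Groups and replicate numbers come from the titles, and columns were matched by the sample identifiers in the labels. From the counts, edgeR 4.0.16 in R 4.3.3 kept 15903 of 24067 genes by filterByExpr (10 counts, 15 in all), scaled libraries by TMM and fitted a robust quasi-likelihood model with group as its only term. P-values were adjusted over all genes tested by the Benjamini-Hochberg method. CPM uses the TMM-scaled library size, and 1 CPM is 25.6 to 53.0 counts. Standard errors are the absolute log2 fold change over the square root of F. The common biological coefficient of variation was 20.7%. The fit was tested on simulated data. Alternatives were DESeq2 1.42.0, limma 3.58.1 (voom), other scalings, no filter, sex, a replicate block and leaving out each library. The main fit did not treat replicate numbers as pairs.

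The 9 genes, the pathway and marker lists and the rule for named genes were chosen with earlier results of these data known. Named were the 9 genes, ligands with counts, up to 6 genes a list past the threshold, and, chosen after their values were seen, Il10ra, Ifnlr1, Il22ra2, Il23r, Cd163l1, Traf3ip2, Zc3h12a, Nfkbiz, Jak1, Tyk2, Stat3, Socs3, Lcn2, S100a8, S100a9 and Krt16. Cxcl1, Il6, Lbp and Saa2 were also chosen after their values were seen. Of the pathway and marker lists, 7 entries had no row under their symbol. Positions are those of RefSeq for GRCm38 by gene identifier, and exon lengths are the union of GENCODE M21 exons by symbol.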

Additional observations from a re-analysis of the deposited data

How the results depend on the processing

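Il22ra1 and Il17ra were also the genes called among the 9 with RLE size factors, without the filter, by limma-voom and by DESeq2, which is a description because these values chose the set. DESeq2 called 1854 genes higher and 2434 lower, with 20 pathway genes higher and 2 lower, and limma-voom called 17 pathway genes higher. No call in either direction was left with sex as a covariate: 0 and 0 over all genes, 0 of the 9 genes and 0 and 0 pathway genes (edgeR, 1672 higher and 1860 lower before adjustment (p under 0.05)). There Il20rb stood at -0.36 and Il10rb at 0.10. Sex is shared with KO replicate 1 alone among KO libraries, so that fit compares it with the WT libraries. Deviations of same-numbered libraries correlated at 0.12, -0.16 and 0.19, and those of differently numbered ones at -0.22 to 0.17. Such correlations over so few libraries cannot settle whether replicate numbers pair the samples. With the replicate block 1705 genes were higher and 2112 lower, 3 of the 9 were higher (Il17rc joined), and the pathway lists had 14 higher and 1 lower.

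Scaled to the 14 pan-epithelial genes, 185 genes were higher and 8140 lower, 1 of the 9 was higher and 1 lower, and 10 pathway genes were higher and 14 lower. Log2 fold changes moved to 0.85 (Il22ra1) and -0.83 (Il20rb), with the sign turned in -0.47 (Il10rb), -0.26 (Il17rb), -0.21 (Il17rc), -0.44 (Il17re), -0.018 (Il17ra), -0.30 (Il24), -0.28 (Pim1) and -0.40 (Elavl1). Scaled to the 10 non-keratin genes, 107 were higher and 10414 lower, 0 of the 9 higher and 2 lower, and 10 pathway genes higher and 22 lower. Values were 0.46 (Il22ra1) and -1.26 (Il20rb), with the sign turned in -0.88 (Il10rb), -0.67 (Il17rb), -0.58 (Il17rc), -0.84 (Il17re), -0.40 (Il17ra), -0.40 (Il24), -0.72 (Pim1) and -0.80 (Elavl1). These shifts follow from the scaling itself.

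Over the 6 fits that leave out a library, genes higher ranged from 0 to 2906 and lower from 0 to 2938, the 9 from 0 to 5 higher with 0 lower, and pathway genes from 0 to 52 higher and 0 to 2 lower. Log2 fold changes ranged from 1.43 to 1.70 (Il22ra1), 1.05 to 2.65 (Il20ra), -0.24 to -0.01 (Il20rb), 0.15 to 0.33 (Il10rb), 0.57 to 0.94 (Il17ra), 0.36 to 0.68 (Il17rb), 0.35 to 0.72 (Il17rc), 0.05 to 0.55 (Il17re) and -0.81 to 5.63 (Il24), the last without WT replicate 1. Il20ra, Il24 and several ligands have few counts in WT replicates 2 and 3, which limits the precision of their fold changes. The cause of other moves was not tested.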
